A study of Mus musculus with 4 samples.

Results

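The genes described here are 8 conjugating and oxidising enzymes of the mouse liver: the cytosolic sulfotransferases Sult1a1, Sult1d1, Sult1e1, Sult3a1 and Sult5a1 and the flavin-containing monooxygenases Fmo1, Fmo2 and Fmo5. They were taken by symbol, as a list of names, and all 8 were among the 32285 genes of the deposited matrices. RNA of single nuclei was measured in frozen liver. The mice were all male, wild-type and of the inbred strain C57BL6/J, with 2 libraries from aged mice (30 months) and 2 libraries from young mice (2 months). No agent or allele was added in either age group. The labels call the libraries replicates without saying whether they came from separate animals, so every p-value here covers just the variation among 4 libraries, and part of that variation can be technical.

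Sulfotransferases transfer a sulfonate group from the donor PAPS (3′-phosphoadenosine 5′-phosphosulfate) to phenols, steroids, catecholamines and bile acids, which usually makes them more soluble and less active. Flavin-containing monooxygenases sit in the endoplasmic reticulum and use FAD, NADPH and oxygen to oxidise nitrogen and sulfur atoms of drugs and dietary amines. In the liver lobule blood runs from the portal vein to the central vein, and hepatocytes differ in their enzymes along that path. Many sulfotransferase, Fmo and cytochrome P450 genes of the mouse liver also differ between the sexes, through the pattern of growth hormone release and the transcription factor STAT5.

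By the GENCODE vM21 annotation of the mm10 build, all 8 genes are protein coding. Sult1d1 (chromosome 5, 87554645 to 87569027) and Sult1e1 (chromosome 5, 87575969 to 87591594) are neighbours on the minus strand. Fmo1 (chromosome 1, 162829561 to 162866610) and Fmo2 (chromosome 1, 162874317 to 162898726) are likewise neighbours on the minus strand. Sult1a1 (chromosome 7, 126672865 to 126676432, minus strand) overlaps the opposite-strand gene Sgf29, and Sult5a1 (chromosome 8, 123140192 to 123158315, minus strand) overlaps the opposite-strand gene Gm20388. Sult3a1 lies on chromosome 10 (33857721 to 33879532, plus strand) and Fmo5 on chromosome 3 (97628804 to 97655282, plus strand). The coding sequence of Sult3a1 was 90.9% identical to that of its neighbour Sult3a2, so counts of these 2 genes are uncertain. Whether counting used strand is not given in the sources used here, so for Sult1a1 and Sult5a1 reads of the overlapping gene could not be told apart.

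The promoter windows below (RefSeq, build GRCm38.p6, 250 bases before to 50 after the start, 5′ to 3′ on the strand of the gene) belong to the 2 genes with opposite zone patterns, Sult5a1 and Sult1d1, and to Sult3a1 and Fmo2, which were high in 1 aged library. Capitals mark the letters TTCNNNGAA, a STAT5 type motif, searched on both strands.
Sult5a1, chr8:123158231-123158530, minus strand: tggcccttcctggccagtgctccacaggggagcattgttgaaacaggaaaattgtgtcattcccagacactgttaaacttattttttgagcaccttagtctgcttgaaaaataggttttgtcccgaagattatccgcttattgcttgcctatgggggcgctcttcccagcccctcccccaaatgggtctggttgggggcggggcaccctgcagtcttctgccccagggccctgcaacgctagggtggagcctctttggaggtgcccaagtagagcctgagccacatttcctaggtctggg
Sult1d1, chr5:87568957-87569256, minus strand: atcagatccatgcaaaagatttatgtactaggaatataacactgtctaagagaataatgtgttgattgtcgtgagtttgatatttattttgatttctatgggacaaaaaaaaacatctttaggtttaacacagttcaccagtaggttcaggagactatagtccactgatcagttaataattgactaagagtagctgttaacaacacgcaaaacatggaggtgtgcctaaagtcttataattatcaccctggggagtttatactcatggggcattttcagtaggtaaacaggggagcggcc
Sult3a1, chr10:33857472-33857771, plus strand: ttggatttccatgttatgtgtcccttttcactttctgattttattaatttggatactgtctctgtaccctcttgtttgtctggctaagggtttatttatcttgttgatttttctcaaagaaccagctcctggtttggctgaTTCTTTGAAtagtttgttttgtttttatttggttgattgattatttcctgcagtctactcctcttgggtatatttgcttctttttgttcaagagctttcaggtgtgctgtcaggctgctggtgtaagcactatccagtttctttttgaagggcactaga
Fmo2, chr1:162898444-162898743, minus strand: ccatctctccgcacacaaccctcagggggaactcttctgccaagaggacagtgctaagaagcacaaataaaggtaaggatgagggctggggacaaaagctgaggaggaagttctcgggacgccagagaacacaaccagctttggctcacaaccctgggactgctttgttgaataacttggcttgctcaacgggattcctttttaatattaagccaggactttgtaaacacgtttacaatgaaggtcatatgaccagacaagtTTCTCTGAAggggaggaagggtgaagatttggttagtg
Windows were found for 7 of the 8 genes, and Fmo2 had 2. The motif stood once in the Sult3a1 window and once in the Fmo2 window shown, and in 8.30% of the 32851 promoter windows of the table. The letters CAAAGTCCA (HNF4A type) and CTTTGAT (TCF type) were found in no member window, against 0.475% and 3.73% of all windows, and neither overlapped the STAT5 type motif there. A match of letters is a description and not a binding site.

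The deposited matrices held 11362 and 14267 barcodes in aged replicates 1 and 2 and 2666 and 14718 in young replicates 1 and 2, with 38457709 and 54777101 UMIs in the aged and 11799751 and 17809372 in the young libraries. A UMI (unique molecular identifier) stands for 1 captured RNA molecule. Any pair of libraries shared 8 to 67 barcodes. After filters, 5643 and 8718 nuclei of the aged libraries and 1601 and 9669 of the young libraries fell into clusters called hepatocyte-like because fewer than 3 markers of any other class stood out in them. All 9 hepatocyte markers, such as Alb and Apob, were detected in every cluster, those of other classes included, so these markers did not set the hepatocyte-like clusters apart. Over 33 hepatocyte and landmark genes their mean log2 fold against the clusters of other classes was -0.19 to 0.80. Their median UMI count per nucleus was 2143 and 3002.5 in the aged and 3797 and 932 in the young libraries. These clusters were nearly all made up of 1 library each, so hepatocyte-like nuclei of different libraries did not mix. Aged replicate 1 stood apart. Of the 14 female-biased liver genes detected, 11 were highest there, and the 19 genes of that list summed to 1768 and 25.1 UMIs per 1000000 (CPM) in the aged and 478 and 85.0 CPM in the young libraries. Of 18 male-biased genes, 17 were lowest in it (summed 2101 and 7259 CPM in the aged and 17257 and 11722 CPM in the young libraries). Y-linked genes were detected in all 4 libraries, at a summed 497 and 607 CPM in the aged and 791 and 765 CPM in the young ones. No member is on either list. Barcodes over the limit of 5% mitochondrial UMIs, which were left out, numbered 3424 of 11362 and 843 of 14267 in the aged and 689 of 2666 and 868 of 14718 in the young libraries. In the hepatocyte-like nuclei kept, the median mitochondrial share of a zone reached 1.55% in aged replicate 1, in the middle zone, and was at most 0.684% in the other libraries.

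Over all hepatocyte-like nuclei, none of the 7 genes tested passed for a difference between aged and young libraries, against 0.0318% of all 15705 genes tested (0.0255% higher and 0.00637% lower in the aged). For 7 of the 8, the aged and young libraries overlapped, and in most the spread within an age group was as wide as the spread between groups. Fmo2 and Sult3a1 were high in aged replicate 1 and low in aged replicate 2. Sult1e1 was the one member whose libraries did not overlap. The share of all genes without overlap was not counted, so a lack of overlap, here and below, is a description only.

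**Figure D1:**
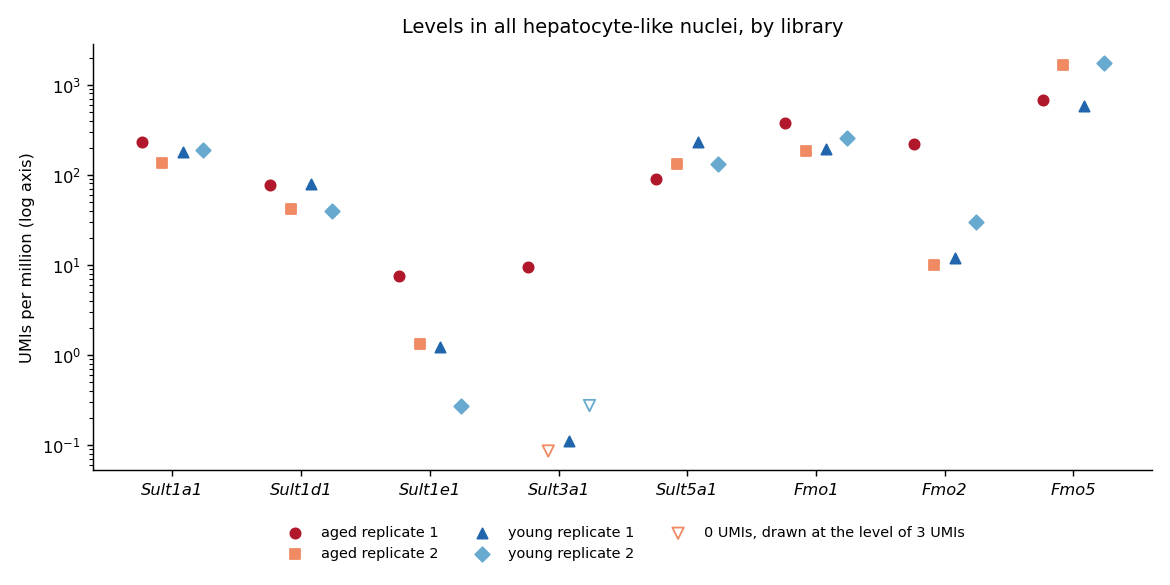
Levels of the 8 genes in all hepatocyte-like nuclei, in UMIs per 1000000 on a log axis, 1 point per library; open triangles stand for 0 UMIs and are drawn at the level that 3 UMIs would give. Aged replicate 1 (218 CPM) lies above the other libraries (9.93 to 29.6 CPM) for Fmo2, and heights of different genes are not comparable, since counts were not scaled by length.

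Fmo5, an atypical member of the family that can insert oxygen beside a carbonyl group, had 683 and 1671 CPM in the aged and 579 and 1724 CPM in the young libraries. Replicate 1 was low and replicate 2 was high in both age groups, and the groups overlapped (log2 difference 0.14, SE 0.64, edgeR adjusted p = 0.933). Fmo1, which oxidises trimethylamine and many drugs, had 372 and 183 CPM in the aged and 196 and 256 CPM in the young libraries. The aged libraries lay on both sides of the young ones (log2 difference 0.38, SE 0.42, edgeR adjusted p = 0.660).

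Fmo2, known chiefly as the lung form, had 218 and 9.93 CPM in the aged and 11.8 and 29.6 CPM in the young libraries. Aged replicate 1 alone was high, and aged replicate 2 was the lowest of the 4. Its level was 22.0 times that of aged replicate 2 (95% counting interval 19.7 to 24.6, from 3839 and 347 UMIs) and 18.5 and 7.36 times that of young replicates 1 and 2. The mean was 114 ± 147 CPM in the aged and 20.7 ± 12.6 CPM in the young libraries (SD, n = 2 each), and the log2 difference of 2.58 (SE 1.17) did not pass (edgeR adjusted p = 0.274). Without aged replicate 1 it was -0.96, and without aged replicate 2 it was 3.56 (edgeR adjusted p = 8.6e-09), a fit in which the lone aged library is assumed to vary like the young ones. Without young replicate 2, where 1 young library remains, it was 3.26. With nuclei of at most 1% mitochondrial UMIs it was 2.67 (edgeR adjusted p = 0.277).

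Sult1a1, the main phenol sulfotransferase, had 232 and 134 CPM in the aged and 181 and 186 CPM in the young libraries. The young libraries were close to each other and lay between the aged ones. Sult1d1, which acts on catecholamines and other phenols in the mouse, had 76.1 and 41.7 CPM in the aged and 79.3 and 39.7 CPM in the young libraries. In both age groups replicate 1 was high and replicate 2 low. The log2 difference was 0.06 (SE 0.37, edgeR adjusted p = 0.956) for Sult1a1 and 0.01 (SE 0.49, edgeR adjusted p = 0.995) for Sult1d1. Sult5a1 had 89.5 and 132 CPM in the aged and 232 and 130.4 CPM in the young libraries. Young replicate 1 was the highest and aged replicate 1 the lowest, while the replicates numbered 2 nearly coincided (log2 difference -0.69, SE 0.43, edgeR adjusted p = 0.405).

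The remaining sulfotransferases were rare. Sult1e1, which sulfonates oestrogens, had 7.44 and 1.32 CPM (131 and 46 UMIs) in the aged and 1.21 and 0.274 CPM (11 and 3 UMIs) in the young libraries. Both aged libraries lay above both young ones, by little in the case of aged replicate 2 and young replicate 1. The log2 difference of 2.60 (SE 1.07) did not pass (edgeR adjusted p = 0.238). Without aged replicate 2, where 1 aged library remains, it was 3.42. Sult3a1, which is more abundant in female than in male mouse liver, had 168 and 0 UMIs in the aged libraries (9.55 CPM in aged replicate 1) and 1 and 0 UMIs in the young ones. Nearly all UMIs of Sult3a1 came from 1 library, at a level at least 111-fold higher than in aged replicate 2 and at least 34.8-fold higher than in young replicate 2, counting the empty libraries at 3 UMIs each. Against the single UMI of young replicate 1 the ratio was 86.7 (95% counting interval 15.3 to 3443). These intervals and limits cover counting error only. Sult3a1 did not pass the filter on low counts, so it entered none of the main tests.

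By edgeR's quasi-likelihood test 5 of these 15705 genes passed for age, with 3149 at an unadjusted p under 0.05 and 955 called by DESeq2. Of the 7 members tested, 0 passed by either tool and 1, Sult1e1, had an unadjusted p under 0.05. The median log2 difference of the 7 was 0.14, beside -0.02 over all genes tested.

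Most of the members tested differed along the lobule. Nuclei were ordered by a zone score, the mean of 12 pericentral landmark genes such as Glul and Cyp2e1 minus that of 12 periportal ones such as Cyp2f2 and Sds, and split into 3 zones of equal size in each library. No member is a landmark. Sult1d1, Sult1e1, Fmo1, Fmo2 and Fmo5 were higher in the pericentral zone and Sult5a1 was higher in the periportal zone, while Sult1a1 did not pass. That is 6 of 7 tested members (5 higher and 1 lower in the pericentral zone), against 20.7% of the 14100 genes tested (10.5% higher and 10.1% lower). The median log2 difference of the 7 was 0.69, beside -0.01 over all genes. Without aged replicate 1 the same 6 genes passed. The zones are ranges of a score and not types of cell: 18.4% to 21.8% of the hepatocyte-like nuclei of each library lay within 0.1 score units of a limit between zones.

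**Figure D2:**
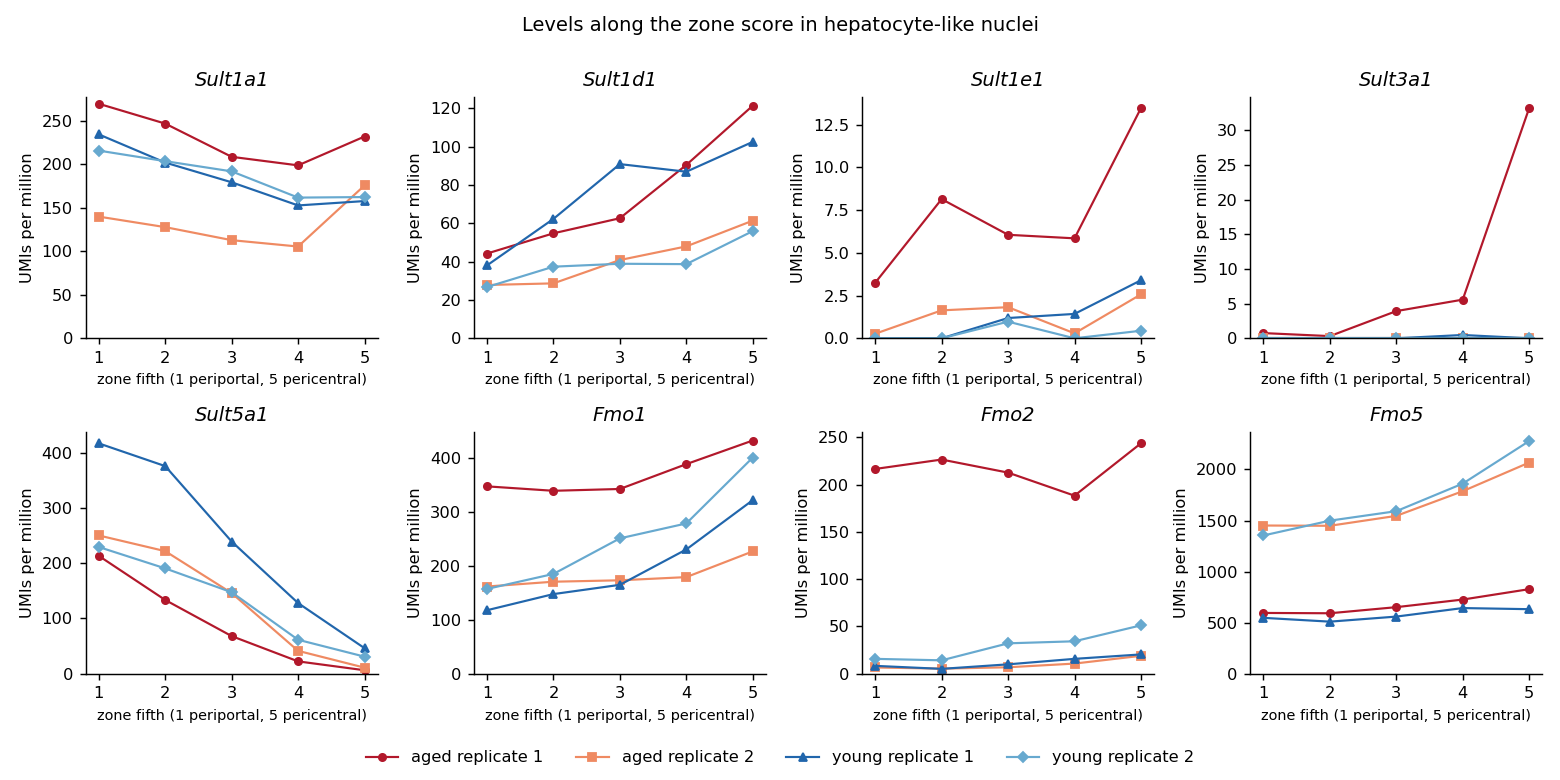
Levels of each gene in UMIs per 1000000 over 5 equal bins of the zone score, from periportal (1) to pericentral (5), 1 line per library. Sult5a1 falls along the axis in each library, to 6.23 and 10.9 CPM in the last bin of the aged libraries and 46.2 and 30.8 CPM in that of the young ones, while Sult1d1 climbs.

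Sult5a1 had the steepest gradient of the members tested. In aged replicate 1 its level was 189, 66.5 and 10.3 CPM in the periportal, middle and pericentral zone. In aged replicate 2 these levels were 238, 146 and 17.1 CPM. Young replicate 1 gave 416, 236 and 81.7 CPM and young replicate 2 gave 217, 143 and 36.8 CPM. The order of the zones was the same in all 4 libraries, and no pericentral value reached any periportal one. The fitted level in the pericentral zone was 9.07-fold lower than in the periportal zone (log2 difference -3.18, SE 0.27, edgeR adjusted p = 3.4e-05). After thinning each nucleus to 1000 UMIs, which left out shallower nuclei, 1.02% and 1.45% of the aged and 6.23% and 2.53% of the young pericentral nuclei held a Sult5a1 UMI (95% exact binomial intervals 0.558% to 1.70% and 1.01% to 2.02% in the aged and 4.30% to 8.68% and 1.81% to 3.44% in the young libraries). In the periportal zone the thinned shares were 17.9% and 20.1% in the aged and 33.9% and 17.6% in the young libraries. Thinning left out 506 of 1881 and 560 of 2906 pericentral nuclei of the aged and 19 of 533 and 1682 of 3223 of the young libraries. Without thinning the pericentral shares were 3.19% and 5.09% in the aged and 19.9% and 3.57% in the young libraries.

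Sult1d1 ran the other way. It had 112 and 57.2 CPM in the pericentral zone of the aged libraries, against 47.7 and 27.6 CPM in their periportal zone. In the young libraries it had 95.8 and 50.6 CPM in the pericentral and 48.8 and 31.0 CPM in the periportal zone. Each library was higher at the pericentral end, by ratios of 2.34 and 2.07 in the aged and 1.96 and 1.63 in the young libraries (log2 difference 1.02, SE 0.09, edgeR adjusted p = 5.7e-05). Sult1e1, its neighbour on chromosome 5, had 64 and 22 UMIs in the pericentral against 28 and 4 UMIs in the periportal zone of the aged libraries. The young libraries had 8 and 1 UMIs in the pericentral and 0 and 0 UMIs in the periportal zone, where 0 UMIs allow up to 1.30 and 0.846 CPM. Its log2 difference of 1.67 (SE 0.41) passed (edgeR adjusted p = 0.0165), and most of its UMIs were in the aged libraries. It did not pass without aged replicate 2 (1.43, edgeR adjusted p = 0.0714), while it passed without each of the other libraries in turn. With the nuclei split into 2 zones of 50% it was 0.68 (edgeR adjusted p = 0.120). Sult3a1 had 148 UMIs in the pericentral and 3 in the periportal zone of aged replicate 1, a ratio of 48.5 (95% counting interval 16.3 to 238), and in the other 3 libraries it had 1 UMI over all zones.

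Sult1a1 had 221 and 151 CPM in the pericentral and 260.2 and 134 CPM in the periportal zone of the aged libraries. The young libraries had 152 and 161 CPM in the pericentral and 222 and 216 CPM in the periportal zone. In 3 of the 4 libraries the pericentral level was the lower one, and aged replicate 2 went the other way, with a rise in the last of the 5 bins (log2 difference -0.25, SE 0.11, edgeR adjusted p = 0.148). Without aged replicate 2 the log2 difference was -0.39 (edgeR adjusted p = 0.0171).

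**Figure D3:**
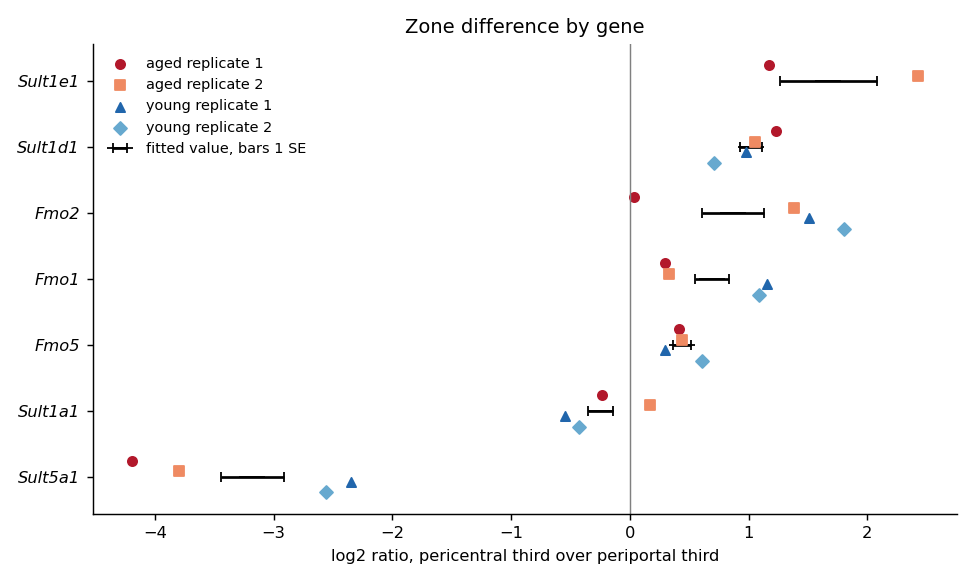
Log2 ratio of the pericentral over the periportal zone for the 7 members tested, with 1 point per library and the fitted value with 1 SE; ratios against 0 UMIs (Sult1e1 in the young libraries) are not drawn. The 4 libraries of Sult5a1 lie far left of 0 and those of Sult1d1, Fmo1 and Fmo5 all lie right of it, while aged replicate 1 of Fmo2 lies near 0.

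All 3 Fmo members leaned to the central vein, by smaller ratios than Sult5a1. Fmo5 had 798 and 1968 CPM in the pericentral and 600.1 and 1456 CPM in the periportal zone of the aged libraries. In the young libraries it had 638 and 2135 CPM in the pericentral and 520.5 and 1404 CPM in the periportal zone. The ratio was 1.33 and 1.35 in the aged and 1.23 and 1.52 in the young libraries, and the pericentral level was the higher one in all 4 libraries (log2 difference 0.44, SE 0.07, edgeR adjusted p = 0.00203). Fmo1 had 422 and 209 CPM in the pericentral and 345 and 166 CPM in the periportal zone of the aged libraries, and 279.6 and 349 CPM in the pericentral and 126 and 164 CPM in the periportal zone of the young ones. It was higher in the pericentral zone in every library (log2 difference 0.69, SE 0.15, edgeR adjusted p = 0.00777).

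Fmo2 had 224 and 16.1 CPM in the pericentral and 219 and 6.19 CPM in the periportal zone of the aged libraries. In the young libraries it had 19.7 and 46.3 CPM in the pericentral and 6.91 and 13.3 CPM in the periportal zone. Aged replicate 1 was flat (ratio 1.02, 95% counting interval 0.948 to 1.10), whereas the other 3 libraries rose by 2.61, 2.84 and 3.49 towards the central vein. The pooled log2 difference was 0.87 (SE 0.26, edgeR adjusted p = 0.0396). It did not pass without young replicate 1, young replicate 2 or aged replicate 2 (edgeR adjusted p = 0.0814, 0.117 and 0.130), and without aged replicate 1 it was 1.57 and passed. The flat profile of aged replicate 1 held at the level of nuclei: after thinning, 18.1% of its pericentral and 18.2% of its periportal nuclei held a Fmo2 UMI, while those shares were 1.79% and 0.607% in aged replicate 2. Endothelial-like nuclei had thinned shares of 4.42% and 1.25% in the aged libraries. Without thinning, 40.4% of pericentral and 36.8% of periportal nuclei of aged replicate 1 held one.

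Whether the age difference itself varied along the lobule was tested with a zone by age term. Sult5a1 passed, as 1 of 7 tested members, against 0.206% of the 14100 genes (29 genes, 0.0709% of all with a lower value in the aged, and 966 at an unadjusted p under 0.05). Its pericentral to periportal drop was steeper in the aged libraries, at 18.3 and 13.9-fold, than in the young ones, at 5.09 and 5.90-fold, and the groups did not overlap (difference of log2 differences -1.51, SE 0.18, edgeR adjusted p = 0.00777). In the pericentral zone the aged libraries, at 10.3 and 17.1 CPM, lay below the young ones, at 81.7 and 36.8 CPM, and in the periportal zone they overlapped. The age difference inside the pericentral zone was -2.08 on the log2 scale (SE 0.51). It did not pass with edgeR (adjusted p = 0.196), while it passed with DESeq2 (adjusted p = 0.0148). Without aged replicate 2, where 1 aged library remains, it was -2.40. In that zone 0 of 7 tested members passed with edgeR, against 0.0152% of 13198 genes (0.00758% higher and 0.00758% lower). Of these members 1 had an unadjusted p under 0.05 and DESeq2 called 1, beside 2277 and 404 of all genes. The zone by age result did not pass in 5 of 15 alternatives. Without young replicate 1 it was -1.44 (edgeR adjusted p = 0.0539), with at most 1% mitochondrial UMIs per nucleus -1.86 (0.0668), with at least 1000 UMIs per nucleus -1.60 (0.130) and with zones of 50% of the nuclei -1.03 (0.165). With nuclei thinned to 1000 UMIs and ordered anew it was -0.65 (edgeR adjusted p = 0.859), and the pericentral levels were then 13.3 and 30.3 CPM in the aged and 100.2 and 25.5 CPM in the young libraries, which overlap.

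Nuclei of other classes also held Sult5a1 UMIs. In endothelial-like nuclei, which should lack it, Sult5a1 stood at 22.4 and 94.3 CPM in the aged and 258 and 126 CPM in the young libraries, above the pericentral level in each library. After thinning, 2.65% and 8.36% of the aged and 17.2% and 10.2% of the young endothelial-like nuclei held a Sult5a1 UMI. The pericentral share was lower in each library. The endothelial-like cluster itself had 25 of 33 hepatocyte and landmark genes above their pooled level in the non-hepatocyte classes. Whether the pericentral UMIs are expression or RNA free in the droplets was not tested, and they are not read as either. The endothelial-like nuclei had a median of 870.0 and 1222.5 UMIs in the aged and 854.0 and 1105 in the young libraries. Endothelial markers within hepatocyte-like pericentral nuclei did not overlap between the ages (12 of 12 detected, summed 129 and 147 CPM in the aged and 279 and 255 CPM in the young libraries), and neither did macrophage markers (8 of 8, summed 13.0 and 16.1 CPM in the aged and 40.3 and 84.5 CPM in the young libraries). The T/NK markers summed to 169 and 129 CPM in the aged and 39.3 and 42.6 CPM in the young pericentral zones, mostly from Themis, while Nkg7 was at 0 in 3 of these 4 sums and Gzma in 2. Without Themis the direction was the opposite, with sums of 11.3 and 15.2 CPM in the aged and 16.9 and 20.1 CPM in the young zones. Stellate and fibroblast markers other than Sox5, their leading one, summed to 34.6 and 59.9 CPM in the aged and 137 and 195 CPM in the young pericentral zones, without overlap. With Sox5 all 12 were detected, and the sums overlapped (1306 and 1425 CPM in the aged and 1443 and 1144 CPM in the young libraries). B cell markers (8 listed) summed to 20.02 and 15.2 CPM in the aged and 22.8 and 36.3 CPM in the young zones, again without overlap. Dendritic cell markers (33.4 and 18.1 CPM in the aged and 6.55 and 22.5 CPM in the young zones) and neutrophil markers (1.75 and 1.94 CPM in the aged and 0.690 and 3.71 CPM in the young zones) overlapped. Their part in the Sult5a1 result was not tested.

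Fmo1 had the next smallest adjusted p for zone by age among the members. Its pericentral to periportal ratio was 1.22 and 1.26 in the aged and 2.22 and 2.12 in the young libraries, which did not overlap (difference of log2 differences -0.81, SE 0.14, edgeR adjusted p = 0.0525). It passed in 4 of 15 alternatives, with values from -0.88 to -0.58 over all of them. Among the 4 are the fits without aged replicate 1 and without aged replicate 2, where 1 aged library remains. Of the other members, Sult1a1 was at 0.61 without aged replicate 1, where 1 aged library remains. Fmo2 was at -1.24 (edgeR adjusted p = 0.540) with all libraries and at -1.70 without aged replicate 2. With no filter on low counts Fmo2 passed (-1.27, edgeR adjusted p = 0.00381). In the periportal zone Fmo1 was higher in both aged libraries (345 and 166 CPM) than in both young ones (126 and 164 CPM), by little in the case of the replicates numbered 2, and the age difference there of 0.92 on the log2 scale (SE 0.42) did not pass (edgeR adjusted p = 0.296). Of 6 members tested in the periportal zone 0 passed with edgeR, against 0.00764% of 13096 genes. Of these members 1 (Fmo2) had an unadjusted p under 0.05, beside 2497 of all genes tested. DESeq2 called 0 of them, beside 557 of all genes. In the middle zone 0 of 6 passed with edgeR, against 0% of 13054 genes. There 0 members had an unadjusted p under 0.05 and DESeq2 called 0, beside 2204 and 460 of all genes. Without aged replicate 2, where 1 aged library remains, the age difference of Fmo2 passed in the pericentral (2.93), middle (3.67) and periportal (4.59) zone (edgeR adjusted p = 4.8e-04, 0.00166 and 1.2e-13), and without aged replicate 1 its sign was negative in all 3.

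Hepatocyte transcripts also appeared in nuclei of other classes, and whether they were RNA free in the droplets was not tested. Of 12 transcripts that hepatocytes make in bulk, the median level in endothelial-like nuclei was 47.1% and 77.7% of the hepatocyte-like level in the aged and 87.1% and 71.7% in the young libraries. Fmo5 stood at 14.5% and 81.0% of its hepatocyte-like level there in the aged and 62.1% and 83.1% in the young libraries, below or near that median, so its UMIs outside hepatocytes are not read as expression. Sult1d1 and Fmo1 lay in the same range, at 12.6% to 97.2%, over the 4 libraries.

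Fmo2 differed from that pattern. In cholangiocyte-like nuclei, named from bile duct markers such as Bicc1 and Spp1, it stood at 313 and 184 CPM (20 and 19 UMIs) in the aged and 266 and 112 CPM (3 and 14 UMIs) in the young libraries. These values were 143% and 1854% of the hepatocyte-like level in the aged and 2259% and 379% of it in the young libraries, in the same nuclei in which Fmo5 stood at 6.86% to 24.2%. They rest on 34 and 95 aged and 9 and 166 young nuclei, and a class against the rest was not tested. In endothelial-like nuclei Fmo2 stood at 30.8% and 199% of its hepatocyte-like level in the aged and 265% and 116% in the young libraries. They numbered 293 and 984 aged and 69 and 715 young nuclei. Macrophage-like nuclei had 7.28% and 212% in the aged and 0% and 83.2% in the young libraries. Lymphocyte-like nuclei had 2.06% and 54.5% in the aged and 0% and 0% in the young ones. In stellate or fibroblast-like nuclei Fmo2 stood at 34.2 and 42.1 CPM in the aged and 20.9 and 43.6 CPM in the young libraries. In aged replicate 1 that was far below its hepatocyte-like level, and in the other 3 libraries above it. Of the 1439 such nuclei of young replicate 2, 864 came from a cluster rich in hepatocyte RNA. It had 26 of 33 hepatocyte and landmark genes above their pooled level in the non-hepatocyte classes. The 8 cholangiocyte markers in hepatocyte-like nuclei summed to 251 and 197 CPM in the aged and 164 and 306 CPM in the young libraries, with 7 and 8 of them detected in the aged and 7 and 8 in the young ones. The leading marker was Pkhd1 in both aged libraries (237 and 175 CPM) and in young replicate 1 (137 CPM), and Spp1 in young replicate 2 (141 CPM). The other 7 markers summed to 14.3 and 21.7 CPM in the aged and 27.4 and 165 CPM in the young libraries. Krt19 was at 0 in aged replicate 1, and Cftr was at 0 in young replicate 1. The part of bile duct RNA in the Fmo2 level of aged replicate 1 was not tested.

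**Figure D4:**
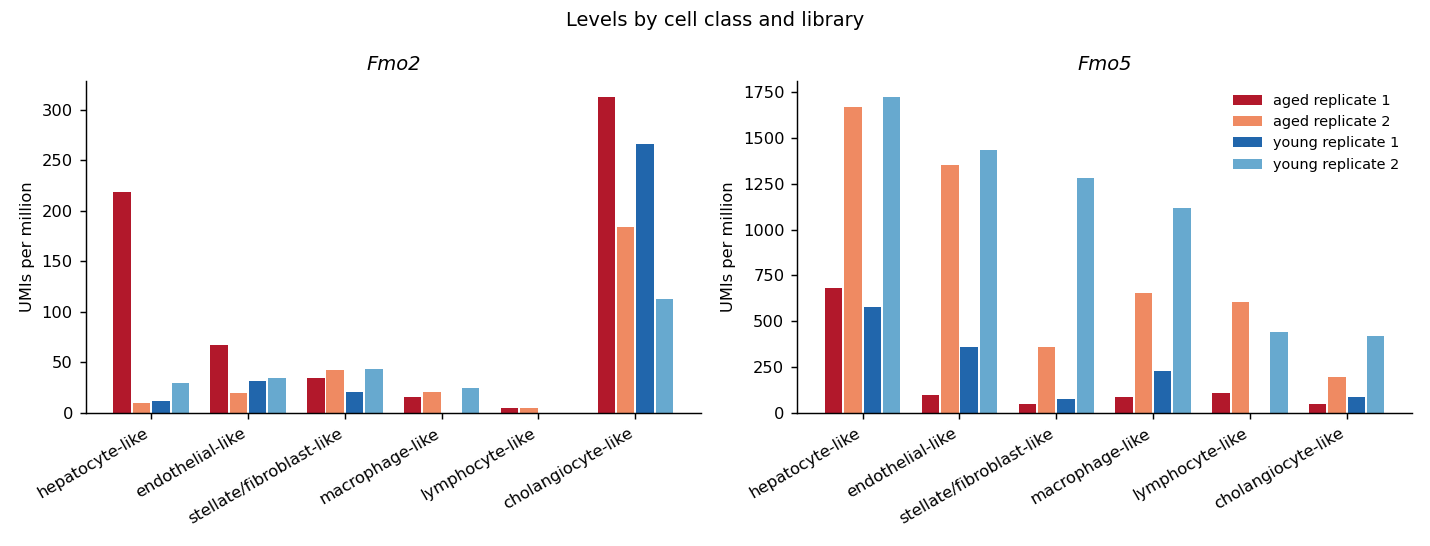
Levels of Fmo2 and Fmo5 in UMIs per 1000000 by cell class, 1 bar per library. Fmo2 reaches 112 to 313 CPM in cholangiocyte-like nuclei of all libraries and 218 CPM in hepatocyte-like nuclei of aged replicate 1 alone, whereas Fmo5 is highest in hepatocyte-like nuclei.

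Of 16 other cytosolic sulfotransferases in the files, 6 were tested for zone, and 2 were higher in the pericentral zone, against 10.5% of all genes in that direction. The median of the 6 was 0.16 on the log2 scale. Sult2a8, a bile acid sulfotransferase of the mouse, had 2609.8 and 2394 CPM in the pericentral against 707 and 908 CPM in the periportal zone of the aged libraries, and 1852 and 1859 against 819.8 and 789 CPM in the young ones (log2 difference 1.42, SE 0.11, edgeR adjusted p = 2.5e-05). Sult1b1, next to Sult1d1, was lower in level and rose by 0.91 (SE 0.12, edgeR adjusted p = 5.2e-04). For age, 0 of 7 tested passed, with Sult2a7 and Sult6b1 at the smallest p (log2 differences 3.81 and 3.0, edgeR adjusted p = 0.167 and 0.204) and a median of 0.97. Both were highest in aged replicate 1: Sult2a7 had 36.9 and 2.92 CPM in the aged and 1.43 and 1.56 CPM in the young libraries, and Sult6b1 had 2.78 and 0.973 CPM in the aged and 0 and 0.457 CPM in the young ones.

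Of 13 genes of sulfate supply and PAPS making, all were tested for zone. Papss2, which makes PAPS, rose by 0.48 (edgeR adjusted p = 0.00103), Cdo1, which oxidises cysteine, by 0.76 (6.2e-04) and Tst, a thiosulfate sulfurtransferase, by 0.68 (3.6e-04) in the pericentral zone. Sqor, which oxidises sulfide, fell by 0.63 (edgeR adjusted p = 5.2e-04) and Slc26a1, a sulfate carrier, fell by 0.47 (0.00731). The median of the 13 was -0.04 on the log2 scale. For age 0 of 13 passed, with a median of -0.37. The smallest p was that of Slc26a1, at 16.3 and 20.7 CPM in the aged and 35.0 and 50.8 CPM in the young libraries, which did not overlap (log2 difference -1.14, SE 0.32, edgeR adjusted p = 0.162), and Bpnt1, which degrades the spent cofactor, came next (-0.96, edgeR adjusted p = 0.180).

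Of the other Fmo genes, Fmo4 and Fmo6 are given here. For zone, the log2 difference was -0.06 for Fmo4 and 0.87 for Fmo6 (edgeR adjusted p = 0.836 and 0.271), and neither passed. For age it was 0.40 for Fmo4 and 2.48 for Fmo6, and neither passed (edgeR adjusted p = 0.627 and 0.489). Fmo6 had 80 and 1 UMIs in the aged and 0 and 9 UMIs in the young libraries, so most of its UMIs came from aged replicate 1. For zone by age 0 of the 6 sulfotransferases and 0 of the 13 sulfate genes passed, and neither did Fmo4 or Fmo6 (-0.44 and -2.27, edgeR adjusted p = 0.865 and 0.937). The smallest p of the sulfotransferases were those of Sult2a8 and Sult1b1 (0.43 and -0.38, edgeR adjusted p = 0.665 and 0.871). Those of the sulfate genes were Cdo1 and Slc26a1 (-0.36 and -0.30, edgeR adjusted p = 0.778 and 0.842).

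Genes with the most similar patterns were sought among 8226 genes over 20 sums, 5 zone bins in each of 4 libraries, by Pearson's r of log2(CPM + 1). Bins of 1 library share nuclei preparation and depth, so r is a description. With each library's mean removed, Sult5a1 ran closest to Chrm3 (0.996), Cryl1 (0.995) and Acaca (0.991), and Sult1d1 to Slc16a7 (0.964), Shroom2 (0.960) and Lhpp (0.956). Fmo1 ran close to Mme (0.966) and Abca6 (0.957), Fmo5 closest to Bckdhb (0.972), Hsd17b4 (0.972) and Immp2l (0.971), and Fmo2 to Pik3ap1 (0.945), Gstt3 (0.932) and Nrn1 (0.925). Sult1a1 had no gene above 0.782, which was Gmcl1, followed by Plekha8 (0.760) and Foxo1 (0.736). For Sult1e1 (Tsc2, Golga7 and Gpn3, at 0.821 to 0.808) and Sult3a1 (Scp2, Cyp7b1 and Hsd3b3, at 0.906 to 0.851) the counts are too sparse to read these values. Among the members, with library means removed, the most opposed pair was Sult5a1 and Fmo5 (-0.917) and the most alike was Fmo1 and Fmo2 (0.848).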

How the data were processed

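Per the submitters' processing notes, counts were made with Cell Ranger 7.1.0 against mm10, and the authors deposited 1 matrix of raw UMI counts per library. Annotation release, introns and strand: not given in the sources used here. The 8 members, the gene lists and the tests were chosen with earlier results of these data known. All 8 members are named for age over all hepatocyte-like nuclei and for zone, and some of them in the other results. Other list genes are named if they passed, or else by the 2 smallest p. Some genes that this rule or the similarity ranking picks are not reported here.

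Barcodes were kept from 500 UMIs and 300 genes upwards if mitochondrial UMIs were at most 5%. Scrublet's automatic threshold marked 0 barcodes and was not used, so the highest scores were removed at 0.8% per 1000 barcodes (722 and 1532 nuclei of the aged and 42 and 1631 of the young libraries). Leiden clusters (scanpy 1.11.5, igraph 0.11.9) were named from markers by limits set after the data were seen, and 514 and 314 aged and 42 and 88 young nuclei stayed unnamed. No authors' annotation was used, so names may differ from the study's.

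Counts were summed per library, and per library and zone, and tested with edgeR 4.0.16 in R 4.3.3 (filterByExpr, TMM, quasi-likelihood F test, Benjamini-Hochberg adjusted p over all genes tested, threshold 0.05), with DESeq2 1.42.0 as an alternative. Zone and zone by age fits had the library as a block. CPM divide counts by the plain total, times 1000000, with no TMM or length scaling. Positive log2 differences mean higher in the aged libraries or in the pericentral zone. The test was tried on simulated counts with known changes. These were drawn with the same fixed spread for every gene, so the trial cannot show how the test behaves at the spread of these libraries. Replicates of 1 age differed by more than sampling noise (chi-square over its degrees of freedom 117 aged, 72.3 young). Of the file's gene IDs, 32158 of 32285 had a GENCODE vM21 position.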

Additional observations from a re-analysis of the deposited data

Results flagged for a closer look

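Sult5a1 differed between zones in its age difference: the pericentral to periportal log2 ratio was lower in aged than in young libraries by -1.51 (SE 0.18, edgeR adjusted p = 0.00777), with both aged libraries (18.3 and 13.9-fold lower in the pericentral zone) beyond both young ones (5.09 and 5.90-fold lower). The pericentral levels behind it, 10.3 and 17.1 CPM in the aged and 81.7 and 36.8 CPM in the young libraries, are below those in endothelial-like nuclei of the same libraries. Those nuclei numbered 293 and 984 in the aged and 69 and 715 in the young libraries. The part of free RNA in the result was not tested.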

How the results depend on the processing

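Sult1d1, Sult5a1, Fmo1 and Fmo5 passed for zone, each with its main direction, in all 15 alternatives; over these, the log2 difference was 0.74 to 1.10, -3.48 to -2.20, 0.52 to 0.85 and 0.35 to 0.50. Over the leave-one-out fits, genes called ranged from 196 to 1805 for age, 2015 to 2695 for zone, 19 to 313 for zone by age, and 1 to 648, 7 to 388 and 0 to 858 for age in the pericentral, middle and periportal zone. For age, DESeq2 called 955 genes, and 404, 460 and 557 in the pericentral, middle and periportal zone. No filter on low counts gave 1880, with 4, 443 and 1458 in the zones and 184 for zone by age, and it called Fmo2 and Sult1e1 for age (edgeR adjusted p = 3.8e-07 and 0.00391). Plain totals without TMM, chosen after seeing the data, gave 2 for age and 1 in the pericentral zone. At most 1% mitochondrial UMIs gave 2 for age, 1 pericentral and 0 periportal. At least 1000 UMIs gave 15 for zone by age, 1 pericentral and 4 in the middle zone, zones of 50% gave 14 for zone by age, and 4 landmarks a side gave 1 in the pericentral zone. Thinning to 1000 UMIs gave 1868 for zone, 1 pericentral and 2 periportal, and Sult1e1 was then too sparse to test. The causes were not tested.

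Whether the replicate numbers pair the samples is not known. Same-numbered deviations correlated at -0.219 over 9108 genes, which is 1 value from 1 pair of libraries per age and cannot settle it. The main age fits held no replicate block. The replicate block gave 2 genes for age, 1 in the pericentral, 0 in the middle and 27 in the periportal zone, and called no member for age in hepatocyte-like nuclei. A crossed pairing, added after seeing the data, gave 6, 32, 0 and 146. Zone and zone by age fits already hold the library as a block.

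Of 443 member values under alternatives, 24 had the opposite sign, none of them past the threshold. Leaving out 1 library, the age log2 difference ranged from -0.23 to 0.86 for Fmo1, -0.96 to 3.56 for Fmo2, -0.57 to 1.00 for Fmo5, -0.40 to 0.46 for Sult1a1 and -0.50 to 0.75 for Sult1d1. In zones it ranged for Fmo1 from -0.22 to 0.85 (middle) and -0.55 to 0.57 (pericentral), for Fmo2 from -1.32 to 3.67 (middle), -0.97 to 2.93 (pericentral) and -0.63 to 4.59 (periportal), and for Sult5a1 from -0.96 to 0.17 (periportal). The zone by age value of Fmo5 ranged from -0.22 to 0.090, and was 0.068 when thinned, 0.039 with 4 landmarks and 0.0032 with zones of 50%. The age difference of Sult1a1 was -0.0053 with plain totals, -0.00065 with the replicate block and -0.00035 with the crossed one, and that of Sult1d1 was -0.014 with plain totals. Fmo1 in the pericentral zone was -0.0075 with the block, -0.0062 with the crossed one and -0.029 when thinned.

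Sult1e1 and Sult3a1 had 0 to 168 UMIs per library in hepatocyte-like nuclei, so counting error is wide for them.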
